A study of Mus musculus with 3 samples.

Results

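Cells that express Wnt4 from a transgene and still sit in rich medium were set directly against cells that had been pushed to differentiate by withdrawing serum. The comparison uses 2 of the 3 arrays of the series, 1 array per condition. C2C12 is a line of myoblast-like cells that leaves the cell cycle and fuses into multinucleated myotubes when serum is lowered. C2C12-W4-08 is a subline of C2C12 that was transfected with a plasmid carrying V5-tagged Wnt4 under the CMV promoter-enhancer, picked as a single clone, selected with blasticidin and grown for 2 days in medium with 10% fetal bovine serum. C2C12-DF is the untransfected parental line, grown for 2 days in medium with 2% horse serum. The 2 conditions therefore differ in the transgene, in the cloning and drug selection, in the serum, and in the array order, since the C2C12-W4-08 array belongs to a separate order, and none of these can be told apart here. The third array, of proliferating parental cells, enters no value below. With 1 array per condition there is no replicate spread and no test, and at least 2-fold is used as a mark of size.

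Myogenic differentiation runs in steps. Myoblasts that are committed by Myf5 and MyoD stop dividing, switch on myogenin, fuse, and then build the sarcomere, the repeating unit in which thick filaments of myosin pull on thin filaments of actin between Z-discs. Id proteins hold the myogenic factors back by capturing their E-protein partners, and growth factors in serum keep the cycle running. Wnt4 is a secreted ligand that can signal with or without β-catenin, and Wnt proteins take part in forming muscle in the embryo.

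Total RNA was amplified, coupled to 1 dye and hybridised to a mouse oligonucleotide array with 23472 usable probes, so each array gives a signal per probe and not a ratio. The blank spots of an array, which carry no probe, averaged 4.38 scanner units in C2C12-W4-08 and 17.9 in C2C12-DF. This mean was subtracted, and a probe counted as detected above the blank mean plus 2 SD. Detected probes made up 92.8% in C2C12-W4-08 and 74.4% in C2C12-DF. Signals are printed on 1 scale, on which the median detected probe of C2C12-DF is 25 and the median ratio of the arrays over the probes detected on both is 1. The lowest detected signal was 0.731 in C2C12-W4-08 and 2.51 in C2C12-DF, so ratios of dim probes are uncertain. Of the negative control spots, 57 of 96 lay above the detection limit in C2C12-W4-08 and 7 of 96 in C2C12-DF, and the highest mean of a negative control was 1.52 and 1.31 in the same order. Identical positive control spots, 24 of each kind, had mean log2 ratios of 0.82 (SD 0.41), -0.70 (SD 0.14) and -0.95 (SD 0.21), and each of 48 print blocks had a median between -0.52 and 0.31. Single spots of these controls ran from -1.51 to 1.3, so identical spots could differ by more than 2-fold between the arrays. The brightest negative control reached 2.42 in C2C12-W4-08 and 3.33 in C2C12-DF at its mean plus 2 SD. A signal under that is not told apart from background, and a named gene with 1 such signal is given a fold of at least its other signal over that level.

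Over all 17296 probes that both arrays detected, C2C12-W4-08 was higher by 2-fold or more for 1547 (8.94%) and lower by 2-fold or more for 2239 (12.9%). Larger differences leaned further to the low side. At 4-fold the counts were 162 higher and 625 lower, and at 8-fold they were 28 and 219. Another 4486 probes were detected in C2C12-W4-08 alone, where the detection limit was lower, and 226 of these had a signal at least 2-fold above the lowest one detectable in C2C12-DF. In C2C12-DF alone 157 probes were detected, and all of them lie at least 2-fold above the lowest signal of C2C12-W4-08 because the limit of C2C12-DF does. Among probes with a mean signal under 5 the lower share was 25.9% and among those over 1000 it was 10.4%, so part of the low side is dim. Genes were then read in 49 lists by role, and of 1537 listed genes, markers and genes named by the study included, 107 had no probe under their name. The median log2 ratio over all probes is 0 by the scaling, and each list is given beside that. The counts of a list are to be read against the shares over all probes, 8.94% higher and 12.9% lower. Lists near both shares include G1 control (8% and 16%), lysosome and autophagy (7.5% and 12.5%) and Hox genes (10% and 15%). Counts per list use the detection limit, so members with a signal under the negative control level are counted too. For the sarcomere lists the counts are also given with such signals raised to that level.

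**Figure D1:**
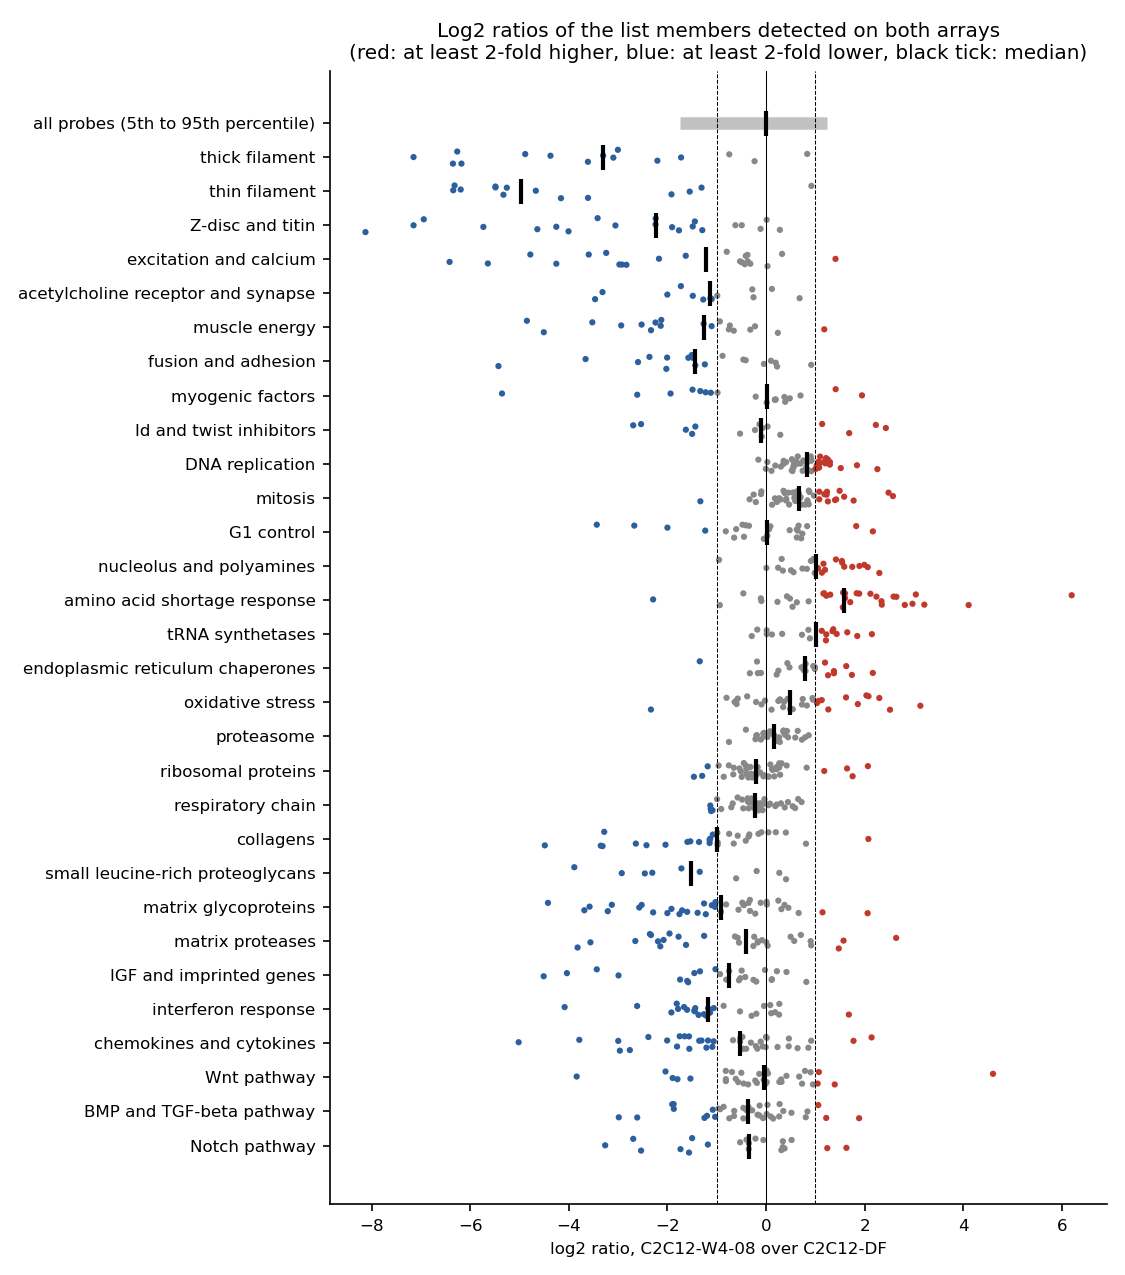
Log2 ratios of C2C12-W4-08 over C2C12-DF for each gene detected on both arrays (1 point per gene) in 30 of the gene lists, with the 5th to 95th percentile of all probes as a grey bar on top. Muscle lists spread to the left, the amino acid shortage response and the lists of growth lie to the right, and the proteasome and respiratory chain stay close to 0.

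**Figure D2:**
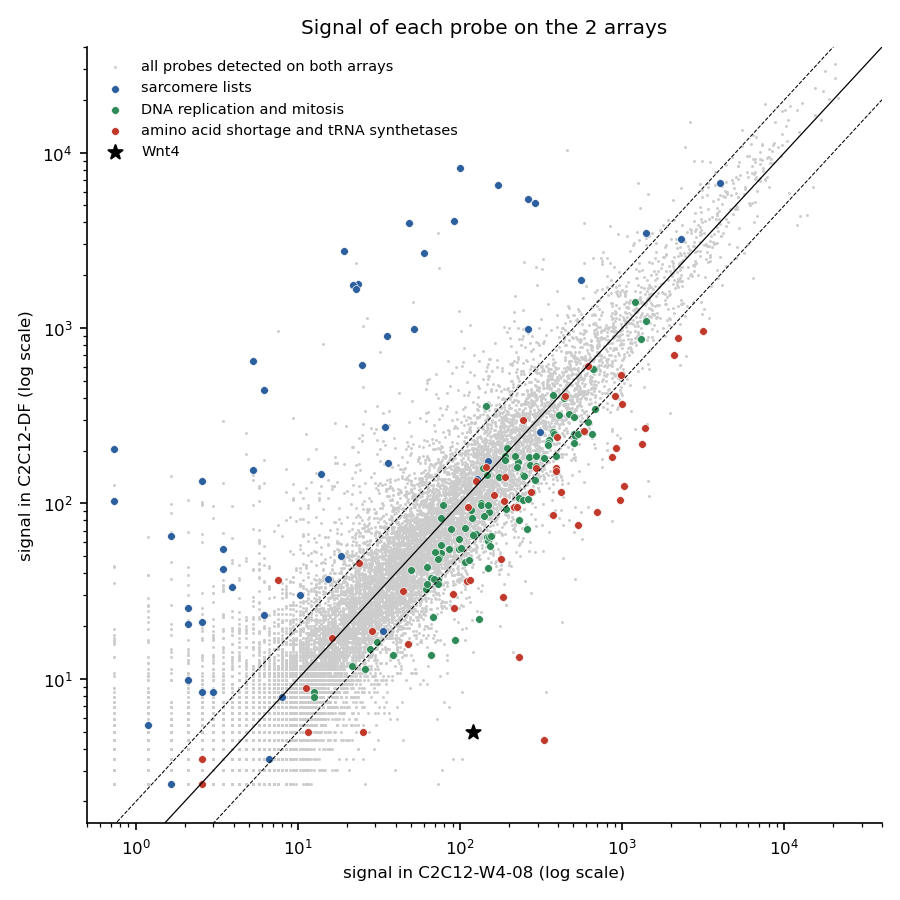
Signal of each probe in C2C12-W4-08 (horizontal axis, log scale) against C2C12-DF (vertical axis, log scale), with equal signals on the solid line and 2-fold differences on the dashed lines. Most sarcomere genes (blue) lie above the lines, on the C2C12-DF side, genes of the amino acid shortage response and tRNA synthetases (red) mostly lie on the C2C12-W4-08 side, and replication and mitosis genes (green) lie closer to the solid line on that same side.

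Wnt4, the gene that defines the subline, had a signal of 121 in C2C12-W4-08 and 4.96 in C2C12-DF, a log2 ratio of 4.60. It thus stood high in the transfected cells and close to the lowest detectable signal in the parental ones, in the direction that the labels require, and its ratio was number 7 from the top among the 17296 probes detected on both arrays. Whether its probe reads the transgene, the endogenous transcript or both is not known here. The labelled cell type was checked with markers. All 9 myoblast markers passed the detection limit on both arrays, and 7 of them were at least 2-fold lower in C2C12-W4-08 with a summed signal of 1596 there and 5222 in C2C12-DF. The 7 include Pax7 and Fgfr4, whose C2C12-W4-08 signals of 0.731 and 1.18 are not told apart from background. They also include Cdh15, Itga7 and Des, which had 1243, 1265 and 2091 in the differentiating cells of C2C12-DF. The list thus does not single out undifferentiated myoblasts. Myf5 and Msc stayed within 2-fold at 0.48 and 0.18. The 12 myotube markers had a summed signal of 1001 in C2C12-W4-08 and 22484 in C2C12-DF, and 11 of them were at least 2-fold lower in C2C12-W4-08. Of a mixture of cells, an array cannot tell fewer myotubes from less muscle RNA per cell, and this holds for each muscle gene below.

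Sarcomere genes made up most of the 15 named probes with the lowest ratios and a signal of at least 100 on either array. The listed sarcomere genes were a minority of all large differences on that side, where 625 probes were at least 4-fold lower. Over the 3 sarcomere lists, of thick filament, thin filament and Z-disc genes, 50 genes were detected on both arrays. Of these, 41 were at least 2-fold lower in C2C12-W4-08, 32 were at least 4-fold lower and 0 were at least 2-fold higher. Their median log2 ratio was -3.36, against 0 over all probes, and their summed signal was 10551 in C2C12-W4-08 and 66068 in C2C12-DF. With dim signals raised to the negative control level, the counts were 41 at 2-fold and 31 at 4-fold, and the median was -3.25. Myl4, an essential myosin light chain of embryonic muscle and atrium, had a signal of 19.3 in C2C12-W4-08 and 2734 in C2C12-DF, a log2 ratio of -7.15. Mylpf, the regulatory light chain of fast fibres, had 100.2 in C2C12-W4-08 and 8169.6 in C2C12-DF, with a ratio of -6.35. The fast heavy chain Myh4 stood at 6.16 in C2C12-W4-08 and 445 in C2C12-DF (-6.18), and the myosin-binding protein Mybph at 23.3 in C2C12-W4-08 and 1791 in C2C12-DF (-6.26). Of the thick filament list, 12 of 15 genes were at least 2-fold lower and the median was -3.30.

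The thick filament list also holds members that differed little. Myl3, the slow and ventricular light chain, was among the brighter probes of both arrays with 3991 in C2C12-W4-08 and 6689 in C2C12-DF (-0.74), and the perinatal heavy chain Myh8 had 149 in C2C12-W4-08 and 175 in C2C12-DF (-0.23). Mylk2, the myosin light chain kinase of skeletal muscle, leaned the other way with 33.3 in C2C12-W4-08 and 18.6 in C2C12-DF (0.84). These members lay apart from the other light and heavy chains, since Myl1, the fast essential light chain, had 264 in C2C12-W4-08 and 5460.1 in C2C12-DF (-4.37).

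Thin filament genes were lower most uniformly, with 13 of 14 at least 2-fold lower and a median of -4.96. Both troponin C genes were low, with the fast Tnnc2 at 48.7 in C2C12-W4-08 and 3949.7 in C2C12-DF (-6.34) and the slow Tnnc1 at 91.2 in C2C12-W4-08 and 4090.0 in C2C12-DF (-5.49). The fast inhibitory subunit Tnni2 had 22 in C2C12-W4-08 and 1752 in C2C12-DF (-6.32), and the fast tropomyosin-binding subunit Tnnt3 had 22.9 in C2C12-W4-08 and 1673 in C2C12-DF (-6.19). The slow isoforms were lower as well, with Tnni1 at -5.49 and Tnnt1 at -4.67, and so was the cardiac and embryonic Tnnt2 at -4.16 on the log2 scale. Skeletal actin, Acta1, had 171 in C2C12-W4-08 and 6528 in C2C12-DF (-5.26). The tropomyosins, which are also made outside muscle, differed less, with Tpm2 at -1.92 and Tpm1 at -1.31, and Tmod4 was dim on both arrays at 6.61 in C2C12-W4-08 and 3.49 in C2C12-DF (0.92).

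Among Z-disc and titin genes, 16 of 21 were at least 2-fold lower, with a median of -2.24. The stretch-regulated ankyrin repeat gene Ankrd2 had 5.25 in C2C12-W4-08 and 645 in C2C12-DF (-6.94), and Myoz2, a calcineurin-binding protein of the Z-disc, had 2.54 in C2C12-W4-08 and 135 in C2C12-DF (-5.73). Titin, Ttn, had 0.731 in C2C12-W4-08 and 204 in C2C12-DF by its brightest probe, at least 84.4-fold lower, and the myosin chaperone Unc45b had 0.731 in C2C12-W4-08 and 104 in C2C12-DF, at least 42.9-fold lower. Another Ttn probe had 5.70 in C2C12-W4-08 and 41.6 in C2C12-DF (-2.87). Members that differed by less than 2-fold include Ankrd1, a relative of Ankrd2 that is also induced outside striated muscle, at 2296 in C2C12-W4-08 and 3228 in C2C12-DF (-0.49), and the small heat shock protein Hspb7 at 309.5 in C2C12-W4-08 and 255 in C2C12-DF (0.28).

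**Figure D3:**
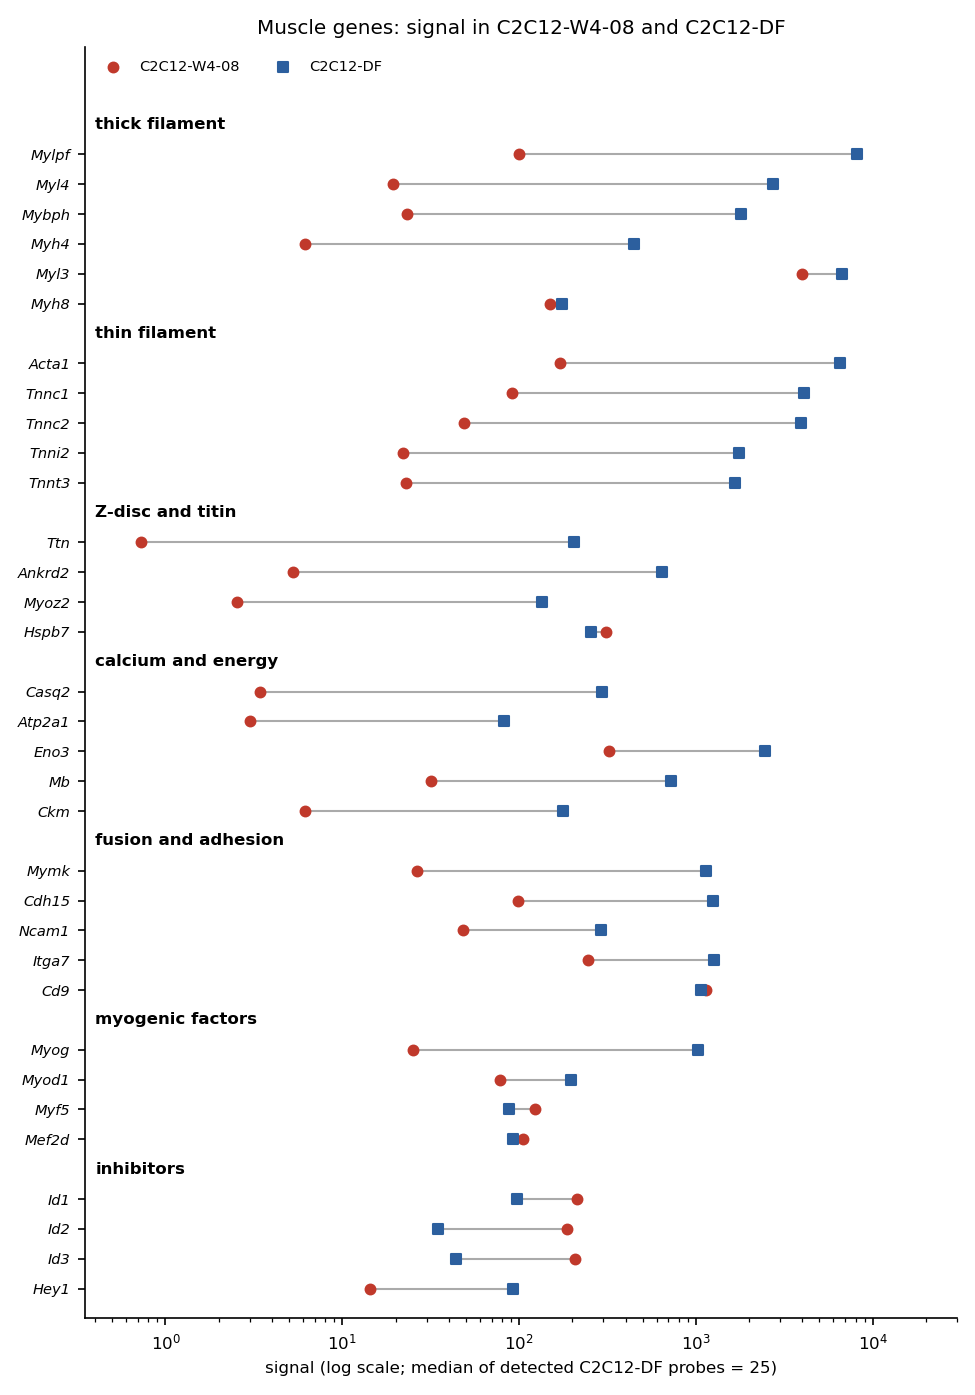
Signals (log scale) of muscle genes and their inhibitors in C2C12-W4-08 (red circles) and C2C12-DF (blue squares), grouped by role, with a grey line joining the 2 arrays. The troponin, skeletal actin and fast myosin genes lie far apart, Myl3, Myh8, Hspb7 and Cd9 lie close together, and the Id genes run the other way.

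The promoters of 3 strongly lower thick filament genes are shown with the hexamer CAGCTG, an E-box that myogenic factors bind, in capitals. The 250 bases before the annotated start were read 5′ to 3′ from the RefSeq promoter table of GRCm38.p6, and they lie upstream of the transcript. They are from chr11:67237562-67237811 on the plus strand for Myh4, from chr1:134193198-134193447 on the plus strand for Mybph and from chr7:127211358-127211607 on the plus strand for Mylpf.
Myh4: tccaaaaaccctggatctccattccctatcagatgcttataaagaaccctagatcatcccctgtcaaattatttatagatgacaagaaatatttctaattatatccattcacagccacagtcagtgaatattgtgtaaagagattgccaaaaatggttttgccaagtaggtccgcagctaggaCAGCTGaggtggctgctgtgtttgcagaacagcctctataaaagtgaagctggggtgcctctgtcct
Mybph: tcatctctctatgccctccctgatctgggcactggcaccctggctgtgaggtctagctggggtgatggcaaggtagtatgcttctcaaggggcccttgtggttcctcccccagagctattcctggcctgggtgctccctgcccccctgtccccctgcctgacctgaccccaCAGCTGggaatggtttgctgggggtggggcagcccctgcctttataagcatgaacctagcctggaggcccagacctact
Mylpf: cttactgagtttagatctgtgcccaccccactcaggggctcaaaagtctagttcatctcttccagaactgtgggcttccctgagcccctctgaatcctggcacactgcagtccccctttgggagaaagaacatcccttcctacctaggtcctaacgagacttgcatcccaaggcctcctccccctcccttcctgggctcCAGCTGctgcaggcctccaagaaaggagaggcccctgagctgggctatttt
Of the 65 windows of sarcomere list genes, 18 (27.7%) held CAGCTG, which reads the same on both strands, and 13% of all 32851 windows of this length did. The letters CTA and TAG with any 4 bases between them were in 9 windows (13.8%) and in 3.20% of all. Sites of Mef2 factors have A or T between such ends, so the letters searched are wider and a match need not be such a site. A match is a description of the letters, and the windows of Tnnc2 and Myl4, not shown, held no CAGCTG.

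Genes of excitation, calcium handling and muscle energy were lower as well. Of 22 excitation and calcium genes, 11 were at least 2-fold lower and 1 was higher (median -1.21). Casq2, a calcium-binding protein of the sarcoplasmic reticulum, had 3.44 in C2C12-W4-08 and 294 in C2C12-DF (-6.42), and the fast calcium pump Atp2a1 had 2.99 in C2C12-W4-08 and 82.2 in C2C12-DF (-4.78). The related calcium pump Atp2a2 had 351 in C2C12-W4-08 and 467 in C2C12-DF (-0.41) and thus differed far less than Atp2a1. Sarcalumenin, Srl, stood at 2.09 in C2C12-W4-08 and 104 in C2C12-DF, at least 43.1-fold lower, and Stac3, a partner of the voltage sensor of excitation-contraction coupling, at 13.4 in C2C12-W4-08 and 105 in C2C12-DF (-2.97). The 1 member that was higher was the chloride channel Clcn1, at 18.4 in C2C12-W4-08 and 6.91 in C2C12-DF (1.41).

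Of 19 muscle energy genes, 11 were at least 2-fold lower and 1 was higher (median -1.27). The higher one, Slc2a4, had 5.70 in C2C12-W4-08 and 2.51 in C2C12-DF, where the latter is not told apart from background. Ckm, muscle creatine kinase, had 6.16 in C2C12-W4-08 and 178 in C2C12-DF (-4.85), and myoglobin, Mb, had 31.9 in C2C12-W4-08 and 725 in C2C12-DF (-4.51). Eno3, the muscle enolase, had 323 in C2C12-W4-08 and 2474 in C2C12-DF (-2.94), whereas Eno1, the enolase of most tissues, had 5055 in C2C12-W4-08 and 4940.0 in C2C12-DF (0.033). The general isozyme of enolase thus lay near the median probe while the muscle form was low. This did not hold for each enzyme made outside muscle. The creatine kinase Ckb had 215 in C2C12-W4-08 and 1239 in C2C12-DF (-2.52), and the aldolase Aldoa had 1914 in C2C12-W4-08 and 4111 in C2C12-DF (-1.10). Cox8b, a cytochrome c oxidase subunit of muscle and brown fat, had 12.9 in C2C12-W4-08 and 149 in C2C12-DF (-3.52).

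Acetylcholine receptor and synapse genes followed, with 8 of 13 at least 2-fold lower and 0 higher (median -1.13). Chrng, the gamma subunit of the fetal receptor, had 24.7 in C2C12-W4-08 and 246 in C2C12-DF (-3.32), and the alpha subunit Chrna1 had 468 in C2C12-W4-08 and 1309 in C2C12-DF (-1.48). Lrp4, the receptor for agrin, had 12 in C2C12-W4-08 and 133 in C2C12-DF (-3.47), while its partner kinase Musk was dim at 11.1 in C2C12-W4-08 and 13.3 in C2C12-DF (-0.25). In the dystrophin complex, 5 of 19 members were at least 2-fold lower and 0 higher (median -0.61), among them dystroglycan, Dag1, at 74.4 in C2C12-W4-08 and 302 in C2C12-DF (-2.02). Of 13 genes of muscle atrophy and its Foxo regulators, 4 were lower and 0 higher (median -0.18), with the ubiquitin ligase Nedd4 at 753 in C2C12-W4-08 and 2329.8 in C2C12-DF (-1.63). Trim63, also counted as lower, was near background on both arrays with 1.18 in C2C12-W4-08 and 2.51 in C2C12-DF.

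Fusion and adhesion genes had a median of -1.43, and 11 of 19 were at least 2-fold lower with 0 higher. Myomaker, Mymk, the membrane protein that myoblast fusion requires, is carried on the array as 1110002H13Rik and had 26.5 in C2C12-W4-08 and 1139.5 in C2C12-DF (-5.43). M-cadherin, Cdh15, had 98.4 in C2C12-W4-08 and 1243 in C2C12-DF (-3.66), Ncam1 had 48.2 in C2C12-W4-08 and 291 in C2C12-DF (-2.6), and the laminin receptor chain Itga7 had 246 in C2C12-W4-08 and 1265 in C2C12-DF (-2.36). Cdh11, a cadherin of mesenchymal cells, was detected in C2C12-DF alone with a signal of 62.1, and was at least 25.7-fold lower in C2C12-W4-08. Tetraspanins were split, since Cd9 had 1139 in C2C12-W4-08 and 1063 in C2C12-DF (0.10) and Cd81 had 1239.5 in C2C12-W4-08 and 3519 in C2C12-DF (-1.51). Members that did not pass 2-fold include Adam12, a metalloprotease of fusing myoblasts, at 29.2 in C2C12-W4-08 and 25 in C2C12-DF (0.22).

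The myogenic factors did not differ as a block. Of 19 factors compared, 2 were at least 2-fold higher, 7 were lower and the median was 0.014. Myogenin, Myog, which drives the terminal step, had 25.1 in C2C12-W4-08 and 1029 in C2C12-DF, a log2 ratio of -5.35 and by far the lowest of the list. MyoD, Myod1, had 78.0 in C2C12-W4-08 and 197 in C2C12-DF (-1.33). Myf5, the earlier determination factor, had 122 in C2C12-W4-08 and 87.6 in C2C12-DF (0.48), and Myf6, also called MRF4, was near background on both arrays with 3.44 in C2C12-W4-08 and 3.0 in C2C12-DF. Myog and Myod1 were thus lower, and Myf5 lay within 2-fold. Mef2a, a partner of the myogenic factors, had 46.8 in C2C12-W4-08 and 132 in C2C12-DF (-1.49), whereas its relative Mef2d had 105 in C2C12-W4-08 and 92.5 in C2C12-DF (0.18). Pax7, a marker of satellite cells, is counted among the 7 lower factors but was near background on both arrays with 0.731 in C2C12-W4-08 and 4.47 in C2C12-DF. The 2 higher members were Pitx3 at 40.5 in C2C12-W4-08 and 15.2 in C2C12-DF (1.41) and Eya4 at 22.9 in C2C12-W4-08 and 5.94 in C2C12-DF (1.95).

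Inhibitors of the myogenic factors fell into separate sets. The Id genes were higher in C2C12-W4-08, with Id1 at 213 in C2C12-W4-08 and 96.9 in C2C12-DF (1.14), Id2 at 187 in C2C12-W4-08 and 34.8 in C2C12-DF (2.43) and Id3 at 206 in C2C12-W4-08 and 44.1 in C2C12-DF (2.23). Snai2, a zinc finger repressor of the Snail family, was also higher at 373 in C2C12-W4-08 and 116 in C2C12-DF (1.69). Some repressors that Notch signaling induces were lower, with Hey1 at 14.3 in C2C12-W4-08 and 92.5 in C2C12-DF (-2.69), Heyl at 3.90 in C2C12-W4-08 and 22.6 in C2C12-DF (-2.53) and Hes1 at 26.5 in C2C12-W4-08 and 74.9 in C2C12-DF (-1.50). Others of this kind stayed within 2-fold, with Hes5 at 40.1 in C2C12-W4-08 and 30.9 in C2C12-DF (0.38). Hes7 had 8.87 in C2C12-W4-08 and 11.3 in C2C12-DF (-0.35), and Hey2 was not detected in C2C12-DF. Twist1 and Twist2 lay near the median probe at 0.29 and -0.075. Over the whole list of 16 inhibitors, 4 were higher and 5 lower, with a median of -0.11. In the Notch pathway itself 2 of 20 genes were higher and 7 lower (median -0.35). The receptor Notch1 had 8.42 in C2C12-W4-08 and 80.7 in C2C12-DF (-3.26) and the ligand Dll1 had 7.51 in C2C12-W4-08 and 25 in C2C12-DF (-1.73), while Rbpj, the DNA-binding partner of the cleaved receptor, had 83.5 in C2C12-W4-08 and 35.3 in C2C12-DF (1.24).

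Part of the cell cycle genes were at least 2-fold higher in C2C12-W4-08. Over the DNA replication and mitosis lists, 98 genes were detected on both arrays, of which 90 lay above the median probe, 31 were at least 2-fold higher and 1 was at least 2-fold lower, with a median of 0.73. In DNA replication 17 of 47 genes were at least 2-fold higher and 0 lower (median 0.83). The replication initiator Mcm10 had 65.8 in C2C12-W4-08 and 13.8 in C2C12-DF (2.26), and Cdt1, which loads the Mcm helicase, had 257 in C2C12-W4-08 and 71.4 in C2C12-DF (1.84). Of the helicase subunits, Mcm2 stood at 149 in C2C12-W4-08 and 60.7 in C2C12-DF (1.3) and Mcm6 at 381 in C2C12-W4-08 and 247 in C2C12-DF (0.62). The clamp Pcna had 1399.5 in C2C12-W4-08 and 1093 in C2C12-DF (0.36), and the large ribonucleotide reductase subunit Rrm1 had 372 in C2C12-W4-08 and 415 in C2C12-DF (-0.15), so some bright S-phase genes stayed within 2-fold.

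In mitosis 14 of 51 genes were at least 2-fold higher and 1 was lower (median 0.66). The largest ratio was that of the kinetochore motor Cenpe, with 131 in C2C12-W4-08 and 22.1 in C2C12-DF (2.57), followed by the mitotic kinesin Kif20b, carried as Mphosph1, with 93.4 in C2C12-W4-08 and 16.7 in C2C12-DF (2.48). Cenpf had 148 in C2C12-W4-08 and 43.1 in C2C12-DF (1.78), and the proliferation antigen Mki67 had 154 in C2C12-W4-08 and 65.6 in C2C12-DF (1.24). Cyclin A2, Ccna2, had 679.8 in C2C12-W4-08 and 346 in C2C12-DF (0.97), and the mitotic kinase Cdk1 had 1307 in C2C12-W4-08 and 866 in C2C12-DF (0.59). The single member that was lower was the phosphatase Cdc25b, at 144 in C2C12-W4-08 and 361 in C2C12-DF (-1.33). Survivin, Birc5, and cyclin B2, Ccnb2, were nearly level, with log2 ratios of 0.12 and -0.094.

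The promoter of Cdc20, which activates the anaphase ligase and had 619 in C2C12-W4-08 and 293 in C2C12-DF (1.08), is shown as an example of the list. The letters TTTGAA, the core of a cell cycle element, are in capitals, and the window is chr4:118437344-118437593 on the minus strand.
Cdc20: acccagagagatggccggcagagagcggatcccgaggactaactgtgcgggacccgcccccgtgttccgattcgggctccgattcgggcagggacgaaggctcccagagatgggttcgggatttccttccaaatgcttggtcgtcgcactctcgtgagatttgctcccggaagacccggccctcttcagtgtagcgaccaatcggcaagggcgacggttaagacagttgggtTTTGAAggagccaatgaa
Such letters, on either strand, were in 19 of 51 mitosis windows (37.3%) and in 16.0% of all windows of this length, and the windows of Cenpe, Kif20b and Ccnb1 held none.

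Regulators of the G1 phase showed no common direction, with 2 of 25 higher, 4 lower and a median of 0.026. Myc, a growth-promoting transcription factor, had 200.1 in C2C12-W4-08 and 44.6 in C2C12-DF (2.17), and cyclin D2, Ccnd2, had 464 in C2C12-W4-08 and 131 in C2C12-DF (1.83). Cyclin D3, Ccnd3, the D-type cyclin of differentiating muscle, ran the other way with 94.3 in C2C12-W4-08 and 601 in C2C12-DF (-2.67). The inhibitor p21, Cdkn1a, which holds cells out of the cycle, had 246 in C2C12-W4-08 and 983 in C2C12-DF (-2.0), and the Ink4 inhibitor Cdkn2c had 33.7 in C2C12-W4-08 and 79.3 in C2C12-DF (-1.23). Of 27 p53 response genes 4 were higher and 4 lower (median 0.45), with Gadd45g at 229 in C2C12-W4-08 and 860.4 in C2C12-DF (-1.91) and the ubiquitin ligase Mdm2 at 226 in C2C12-W4-08 and 114 in C2C12-DF (0.99). Cdkn1a, which p53 also induces, thus had a ratio of opposite sign to that of Mdm2.

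Immediate early genes were mixed, with 6 of 30 higher, 8 lower and a median of -0.28. Fosl1, an AP-1 factor, had 566 in C2C12-W4-08 and 62.6 in C2C12-DF (3.18) and Ptgs2, the inducible cyclooxygenase, had 71.7 in C2C12-W4-08 and 16.7 in C2C12-DF (2.10). Egr1 had 30.6 in C2C12-W4-08 and 229.8 in C2C12-DF (-2.91) and Junb had 85.3 in C2C12-W4-08 and 177 in C2C12-DF (-1.05), so members of the same rapid response stood on both sides. Among histone and chromatin genes 6 of 18 were higher and 1 was lower (median 0.32). The architectural proteins Hmga2, at 291 in C2C12-W4-08 and 52.9 in C2C12-DF (2.46), and Hmga1, at 545 in C2C12-W4-08 and 154 in C2C12-DF (1.83), are typical of embryonic and dividing cells. Hells, a chromatin remodeler of dividing cells, had 201 in C2C12-W4-08 and 46.5 in C2C12-DF (2.12), and the methyltransferase Ezh2 had 257 in C2C12-W4-08 and 106 in C2C12-DF (1.27). The lower member was the linker histone H1f2, carried as Hist1h1c, at 107 in C2C12-W4-08 and 354 in C2C12-DF (-1.72).

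The response to amino acid shortage was the list with the highest median. This response is run by Atf4, a transcription factor that is translated when the integrated stress response is on, and it raises amino acid synthesis, uptake and the charging of tRNAs. Of 34 genes compared, 23 were at least 2-fold higher in C2C12-W4-08 and 1 was lower, with a median of 1.58 against 0 over all probes. Cth, which makes cysteine from cystathionine, had 329 in C2C12-W4-08 and 4.47 in C2C12-DF, a log2 ratio of 6.20, the highest among all 17296 probes. Its signal in C2C12-DF lies near the detection limit, and the ratio was between 2.86 and 6.74 over the settings tried. Trib3, a pseudokinase that is a late target of the response, had 229 in C2C12-W4-08 and 13.3 in C2C12-DF (4.11).

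Of the transcription factors in the list, the central ones were at least 2-fold higher. Atf4 had 3160.1 in C2C12-W4-08 and 967 in C2C12-DF (1.71), Ddit3, also called Chop, had 1316 in C2C12-W4-08 and 219 in C2C12-DF (2.59), and Atf3 had 89.8 in C2C12-W4-08 and 30.4 in C2C12-DF (1.56). Atf5 and Cebpb followed with log2 ratios of 1.3 and 1.16, and Cebpg stayed within 2-fold at 0.63. Asns, which makes asparagine, had 1377 in C2C12-W4-08 and 270.4 in C2C12-DF (2.35). Enzymes of serine and one-carbon metabolism stood high as well, with Psph at 702 in C2C12-W4-08 and 89.5 in C2C12-DF (2.97), Psat1 at 2071 in C2C12-W4-08 and 703 in C2C12-DF (1.56), Shmt2 at 868 in C2C12-W4-08 and 184 in C2C12-DF (2.24) and Mthfd2 at 974 in C2C12-W4-08 and 105 in C2C12-DF (3.21). The mitochondrial folate enzyme Aldh1l2, in no list, had 103 in C2C12-W4-08 and 8.38 in C2C12-DF (3.62).

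Amino acid transport belonged to the same set. The heavy chain of the transporters, Slc3a2, had 1029 in C2C12-W4-08 and 125 in C2C12-DF (3.04) and its light chain Slc7a5, a leucine carrier, had 374 in C2C12-W4-08 and 86.1 in C2C12-DF (2.12). Slc7a11, the cystine carrier, was detected in C2C12-W4-08 alone with a signal of 11.6, at least 3.48-fold higher. Chac1, which degrades glutathione, had 530.1 in C2C12-W4-08 and 75.3 in C2C12-DF (2.81), and Ppp1r15a, which restores translation after stress, had 184 in C2C12-W4-08 and 29.4 in C2C12-DF (2.64). Members that did not follow were Nupr1 at 125 in C2C12-W4-08 and 134 in C2C12-DF (-0.10), Eif4ebp1 at 16.1 in C2C12-W4-08 and 17.2 in C2C12-DF (-0.093) and the hormone Fgf21, the 1 lower member, at 7.51 in C2C12-W4-08 and 36.7 in C2C12-DF (-2.29). Bcat1, a branched-chain aminotransferase in no list, had 432 in C2C12-W4-08 and 49.0 in C2C12-DF (3.14).

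For 3 higher members the promoter is shown with the letters TGATGNAA, read on either strand, in capitals, a form of the composite element that C/EBP and Atf factors bind. The windows are chr2:119350992-119351241 on the plus strand for Chac1, chr6:7693210-7693459 on the minus strand for Asns and chr1:191183334-191183583 on the minus strand for Atf3, each the 250 bases before the start in GRCm38.p6 from RefSeq.
Chac1: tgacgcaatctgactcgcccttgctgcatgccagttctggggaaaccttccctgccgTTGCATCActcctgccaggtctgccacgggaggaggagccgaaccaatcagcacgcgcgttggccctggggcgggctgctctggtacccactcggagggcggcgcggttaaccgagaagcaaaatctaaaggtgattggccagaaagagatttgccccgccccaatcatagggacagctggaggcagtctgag
Asns: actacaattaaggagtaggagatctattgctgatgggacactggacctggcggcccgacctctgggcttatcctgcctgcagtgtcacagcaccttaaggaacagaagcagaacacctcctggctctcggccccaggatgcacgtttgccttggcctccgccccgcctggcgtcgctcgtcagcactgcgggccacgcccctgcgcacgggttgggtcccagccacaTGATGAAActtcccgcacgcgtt
Atf3: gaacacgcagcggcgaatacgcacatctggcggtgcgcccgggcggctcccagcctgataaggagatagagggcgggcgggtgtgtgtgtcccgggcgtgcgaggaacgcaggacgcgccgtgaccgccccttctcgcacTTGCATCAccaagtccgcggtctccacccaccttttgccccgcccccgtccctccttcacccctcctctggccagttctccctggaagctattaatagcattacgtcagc
Of the 43 windows of this list, 10 (23.3%) held the letters on either strand, and 3.45% of all 32851 windows did. The windows of Trib3, Ddit3, Psph and Mthfd2, which had larger ratios than Atf3, held none, which says only that these letters are not within 250 bases of the start.

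Of 18 tRNA synthetases, which charge tRNAs with amino acids, 9 were at least 2-fold higher and 0 lower (median 1.01). The threonyl enzyme Tars had 919 in C2C12-W4-08 and 207 in C2C12-DF (2.15) and the glutamyl-prolyl enzyme Eprs had 418 in C2C12-W4-08 and 116 in C2C12-DF (1.85), while the glutaminyl enzyme Qars had 245 in C2C12-W4-08 and 299.7 in C2C12-DF (-0.29) and the lysyl enzyme Kars had 613 in C2C12-W4-08 and 606 in C2C12-DF (0.016). The members of this list thus did not differ evenly. Chaperones of the endoplasmic reticulum had 7 of 24 members higher and 1 lower (median 0.79). The lower one, Ern1, was near background on both arrays with 1.18 in C2C12-W4-08 and 3.0 in C2C12-DF. Hspa5, the chaperone BiP, had 6434 in C2C12-W4-08 and 1924 in C2C12-DF (1.74), and the oxidase Ero1a, carried as Ero1l, had 270.2 in C2C12-W4-08 and 60.2 in C2C12-DF (2.17). Xbp1, a transcription factor of the unfolded protein response, had 463 in C2C12-W4-08 and 519.7 in C2C12-DF (-0.17), and the disulfide isomerase P4hb had 1623 in C2C12-W4-08 and 2036 in C2C12-DF (-0.33). Of 19 cytosolic and mitochondrial chaperones, 2 were higher and 4 lower (median 0.18). The higher ones, Hspa9 at 1457 in C2C12-W4-08 and 581 in C2C12-DF (1.33) and Hspd1 at 3196 in C2C12-W4-08 and 1282 in C2C12-DF (1.32), fold proteins in mitochondria, and the lower ones include Cryab at 96.1 in C2C12-W4-08 and 301 in C2C12-DF (-1.65), a small heat shock protein abundant in muscle.

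Genes of oxidative stress defence were higher in 11 of 35 cases and lower in 1 (median 0.49). The quinone reductase Nqo1 had 176 in C2C12-W4-08 and 20.1 in C2C12-DF (3.13), and Gclm, a subunit of the enzyme that starts glutathione synthesis, had 431 in C2C12-W4-08 and 75.3 in C2C12-DF (2.52). Sulfiredoxin, Srxn1, had 265 in C2C12-W4-08 and 53.8 in C2C12-DF (2.30), and heme oxygenase, Hmox1, had 386 in C2C12-W4-08 and 91.5 in C2C12-DF (2.08). These are known targets of the factor Nrf2. The glutathione transferase Gsta2, in no list, had 211 in C2C12-W4-08 and 14.2 in C2C12-DF (3.89). Peroxiredoxins did not share this, with Prdx2 at 921 in C2C12-W4-08 and 1604 in C2C12-DF (-0.80) and Prdx1 at 3269 in C2C12-W4-08 and 3024 in C2C12-DF (0.11), and the secreted peroxidase Gpx3 was lower at 6.61 in C2C12-W4-08 and 33.3 in C2C12-DF (-2.33).

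**Figure D4:**
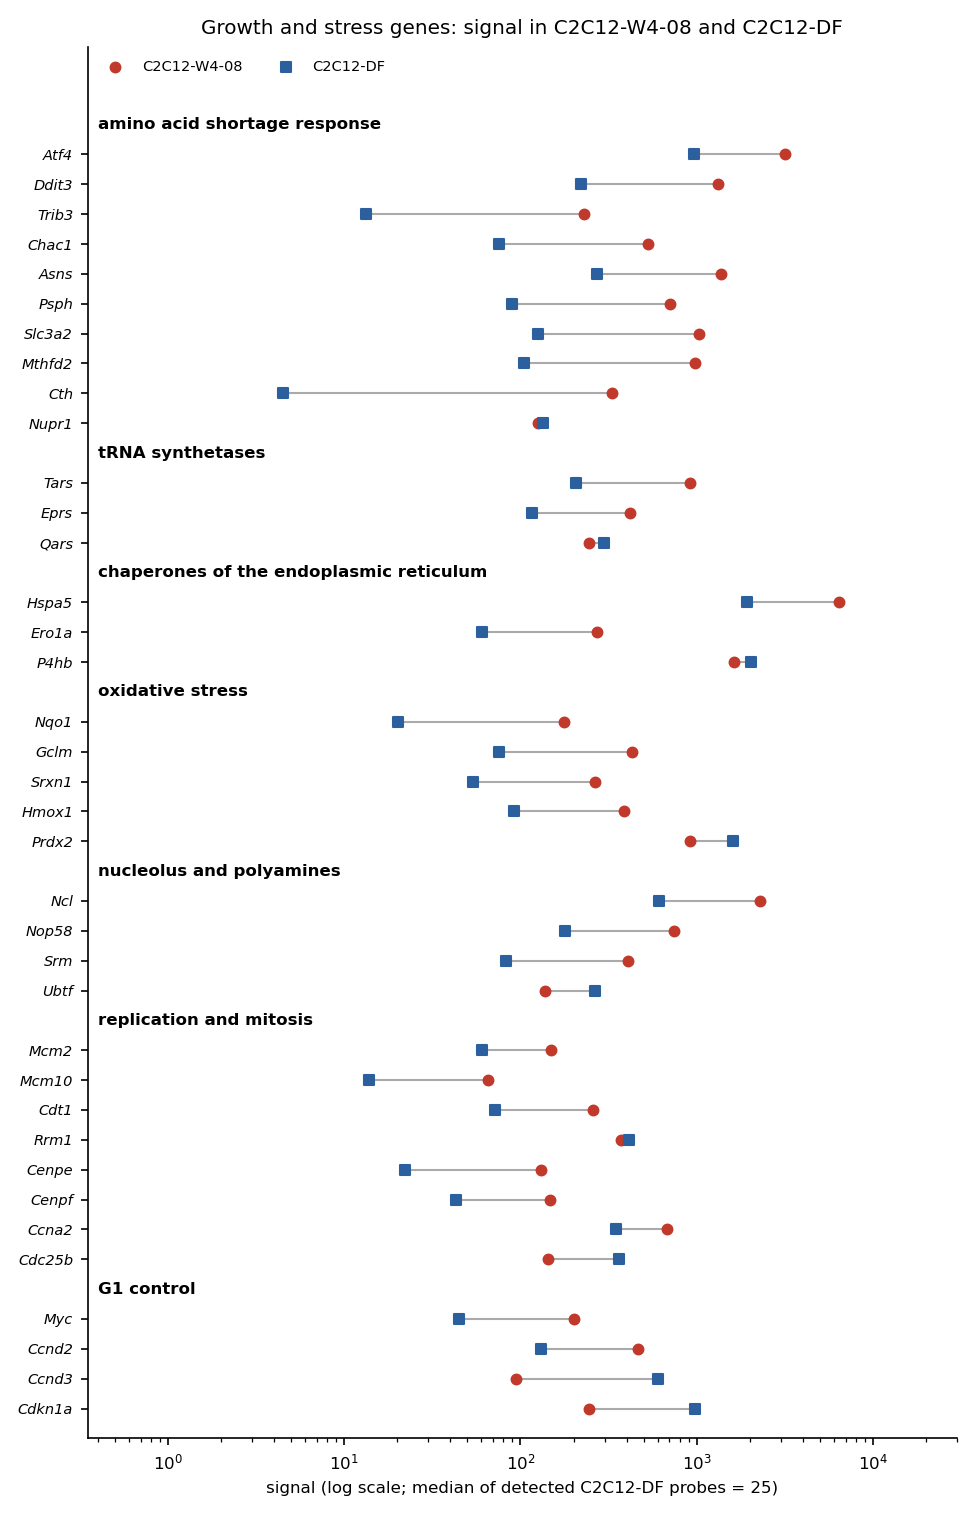
Signals (log scale) of genes of growth, stress and the cell cycle in C2C12-W4-08 (red circles) and C2C12-DF (blue squares), grouped by role, with a grey line joining the 2 arrays. Cth and Trib3 have the widest gaps, most members have the C2C12-W4-08 signal on the right, and Cdc25b, Ccnd3, Cdkn1a, Ubtf and Prdx2 are among those that have it on the left.

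Genes of the nucleolus and of polyamine synthesis were higher in 13 of 26 cases and lower in 0 (median 1.02). Spermidine synthase, Srm, had 407 in C2C12-W4-08 and 82.7 in C2C12-DF (2.30), and Odc1, the first enzyme of polyamine synthesis, had 865 in C2C12-W4-08 and 257 in C2C12-DF (1.75). Nucleolin, Ncl, had 2285 in C2C12-W4-08 and 615 in C2C12-DF (1.89), and Nop58, a protein of small nucleolar particles, had 746 in C2C12-W4-08 and 178 in C2C12-DF (2.06). Fibrillarin, Fbl, which sits in the same particles as Nop58, was level at 1059.6 in C2C12-W4-08 and 1054 in C2C12-DF (0.0077). Ribosomal proteins themselves had 4 of 46 members higher and 3 lower (median -0.20), with Rps16 at 2289.8 in C2C12-W4-08 and 6309 in C2C12-DF (-1.46). The proteasome had no member past 2-fold in either direction, 0 of 29, with Psmb7 at 777 in C2C12-W4-08 and 426 in C2C12-DF (0.87) and Psmc3 at 1261 in C2C12-W4-08 and 2123 in C2C12-DF (-0.75) at its ends.

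The respiratory chain had 0 of 42 members higher and 4 lower, all by little more than 2-fold (median -0.22). Uqcrc2, a core protein of complex III, had 556 in C2C12-W4-08 and 1203 in C2C12-DF (-1.11), and cytochrome c1, Cyc1, had 906 in C2C12-W4-08 and 549 in C2C12-DF (0.72). In glycolysis and hypoxia genes 4 of 28 were higher and 2 lower (median -0.035). Hexokinase 2, Hk2, had 421 in C2C12-W4-08 and 91.5 in C2C12-DF (2.20), and the mitophagy receptor Bnip3l had 8.42 in C2C12-W4-08 and 116 in C2C12-DF (-3.78). Lysosome and autophagy genes had 3 of 40 higher and 5 lower (median -0.21), with the autophagosome protein Map1lc3a at 246 in C2C12-W4-08 and 2386 in C2C12-DF (-3.28) and its relative Map1lc3b at 184 in C2C12-W4-08 and 331 in C2C12-DF (-0.84).

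In lipid metabolism, cholesterol synthesis had 1 of 22 genes higher and 4 lower (median -0.28), with the sterol isomerase Ebp at 172 in C2C12-W4-08 and 473 in C2C12-DF (-1.46). The fatty acid and adipogenic list had 5 of 27 higher and 1 lower (median 0.051). Pparg, the master regulator of adipocytes, had 102 in C2C12-W4-08 and 19.1 in C2C12-DF (2.41), and lipoprotein lipase, Lpl, had 227 in C2C12-W4-08 and 99.3 in C2C12-DF (1.19). The fatty acid carrier Fabp4 was dim, with 13.8 in C2C12-W4-08 and 3.0 in C2C12-DF, at least 4.16-fold higher, and adiponectin, Adipoq, was detected on neither array. The desaturase Scd1 was the 1 lower member, at 1076 in C2C12-W4-08 and 3346 in C2C12-DF (-1.64).

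Many extracellular matrix genes were at least 2-fold lower in C2C12-W4-08, and few were higher. Of 30 collagens and their processing enzymes 14 were at least 2-fold lower and 1 was higher (median -0.98). Col25a1, counted as lower, was near background on both arrays with 0.731 in C2C12-W4-08 and 3.0 in C2C12-DF. Col1a1, a chain of type I collagen, had 11.1 in C2C12-W4-08 and 249 in C2C12-DF (-4.49), whereas its partner chain Col1a2 had 750.3 in C2C12-W4-08 and 1659 in C2C12-DF (-1.14), so the probes of the chains gave different sizes. Col3a1 had 1255 in C2C12-W4-08 and 6735 in C2C12-DF (-2.42), and the chain Col6a1 had 23.8 in C2C12-W4-08 and 237 in C2C12-DF (-3.31). The cross-linking enzyme Loxl1 had 41.9 in C2C12-W4-08 and 427 in C2C12-DF (-3.35) and its relative Lox had 171 in C2C12-W4-08 and 129 in C2C12-DF (0.40). The higher member was Col7a1, the anchoring fibril collagen, at 33.3 in C2C12-W4-08 and 7.89 in C2C12-DF (2.08).

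Matrix glycoproteins had 19 of 39 members lower and 2 higher (median -0.91). Fibronectin, Fn1, had 2757 in C2C12-W4-08 and 8967 in C2C12-DF (-1.70), Sparc had 1447 in C2C12-W4-08 and 5789 in C2C12-DF (-2.0), and fibrillin, Fbn1, had 116 in C2C12-W4-08 and 565 in C2C12-DF (-2.29). Spon2 had 5.70 in C2C12-W4-08 and 122 in C2C12-DF (-4.42) and the basement membrane protein Nid2 had 26.0 in C2C12-W4-08 and 335 in C2C12-DF (-3.68). Periostin, Postn, stood out in the other direction at 92.1 in C2C12-W4-08 and 22.1 in C2C12-DF (2.06), together with Ccn2, carried as Ctgf, at 169 in C2C12-W4-08 and 76.3 in C2C12-DF (1.15). Ccn3, carried as Nov, had 23.3 in C2C12-W4-08 and 47.5 in C2C12-DF (-1.02), so members of the CCN family differed in direction.

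Small leucine-rich proteoglycans, which bind collagen fibrils and growth factors, had 6 of 10 members lower and 0 higher (median -1.53). Nyx, counted as lower, was near background on both arrays with 1.18 in C2C12-W4-08 and 3.0 in C2C12-DF. Biglycan, Bgn, had 292 in C2C12-W4-08 and 2218 in C2C12-DF (-2.93) and decorin, Dcn, had 72.6 in C2C12-W4-08 and 399 in C2C12-DF (-2.46). Osteoglycin, Ogn, had 124 in C2C12-W4-08 and 188 in C2C12-DF (-0.61) and asporin, Aspn, had 20.2 in C2C12-W4-08 and 15.2 in C2C12-DF (0.41), both within 2-fold. The median of this list turned to 0.072 when the deposited table was used as it stands. Lumican, Lum, had 0.731 in C2C12-W4-08 and 10.8 in C2C12-DF, at least 4.48-fold lower.

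Matrix proteases and their inhibitors had 12 of 30 members lower and 3 higher (median -0.40). The gelatinase Mmp2 had 30.6 in C2C12-W4-08 and 361 in C2C12-DF (-3.56), its membrane-bound activator Mmp14 had a log2 ratio of -1.96, and the inhibitor Timp2, which takes part in that activation, had 97.0 in C2C12-W4-08 and 443 in C2C12-DF (-2.19). All members of this activating set were thus lower. Plaur, the receptor of the urokinase Plau, was higher at 558 in C2C12-W4-08 and 89.5 in C2C12-DF (2.64), while Plau had 3.90 in C2C12-W4-08 and 19.6 in C2C12-DF (-2.33). Integrins and laminins had 3 of 21 higher and 2 lower (median -0.075), with Lamb2, a laminin chain of the synaptic basement membrane, at 74.9 in C2C12-W4-08 and 351 in C2C12-DF (-2.23) and the common chain Itgb1 at 527 in C2C12-W4-08 and 865 in C2C12-DF (-0.72). Of the higher ones, Lama1 and Itgb4 had 6.16 and 6.61 in C2C12-W4-08. Both had 2.51 in C2C12-DF, which is not told apart from background. Of 33 genes of the general cytoskeleton 10 were lower and 2 higher (median -0.41), with smooth muscle actin, Acta2, at 2422 in C2C12-W4-08 and 10694 in C2C12-DF (-2.14), transgelin, Tagln, at 215 in C2C12-W4-08 and 1094 in C2C12-DF (-2.35), and vimentin, Vim, at 10354 in C2C12-W4-08 and 11587 in C2C12-DF (-0.16).

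Beside Wnt4 itself, the Wnt pathway showed no common direction. Of 35 ligands, receptors and antagonists 4 (11.4%) were higher, Wnt4 among them, and 5 (14.3%) were lower, with a median of -0.047. These shares lie near the 8.94% and 12.9% over all probes. The ligand Wnt10a had 2.09 in C2C12-W4-08 and 29.9 in C2C12-DF, at least 12.4-fold lower, and the receptor Fzd2 had 38.7 in C2C12-W4-08 and 112 in C2C12-DF (-1.53). Porcn, which acylates Wnt proteins for secretion, had 25.1 in C2C12-W4-08 and 93.4 in C2C12-DF (-1.89), and Wls, which carries them to the surface, had 734 in C2C12-W4-08 and 1184 in C2C12-DF (-0.69). In the list of β-catenin targets and machinery 2 of 21 were higher and 3 lower (median 0.11). Dact1, counted as lower, was near background on both arrays with 1.18 in C2C12-W4-08 and 3.0 in C2C12-DF. β-catenin, Ctnnb1, had 338 in C2C12-W4-08 and 605 in C2C12-DF (-0.84), and Lef1 had 5.25 in C2C12-W4-08 and 11.8 in C2C12-DF (-1.17). Axin2, a widely used target of β-catenin, passed the detection limit in C2C12-W4-08 alone at 1.18. That is not told apart from background and lies below the lowest signal that C2C12-DF could show. Of the members at least 2-fold higher, Myc is also a growth gene and Rnf43 was dim at 16.6 in C2C12-W4-08 and 7.89 in C2C12-DF (1.07).

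BMP and TGF-β ligands, receptors and Smads had 9 of 37 lower and 3 higher, and their median of -0.36 changed to 0.19 when the arrays were scaled to their 75th percentile. Bmp4, a ligand that turns C2C12 cells toward bone when added, had 26.0 in C2C12-W4-08 and 59.7 in C2C12-DF (-1.20). The receptor Tgfbr2 had 70.4 in C2C12-W4-08 and 257 in C2C12-DF (-1.87), the ligand Tgfb3 had 36.9 in C2C12-W4-08 and 138 in C2C12-DF (-1.90), and follistatin, Fst, an antagonist of activins and myostatin, had 5.25 in C2C12-W4-08 and 41.6 in C2C12-DF (-2.99). The inhibitory Smad7 was higher at 34.6 in C2C12-W4-08 and 9.36 in C2C12-DF (1.89). Targets of BMP signaling were split, with 5 of 19 higher, the Id genes and Smad7 among them, and 4 lower, with Hey1 and Dlx3 among them at -2.69 and -2.32. Targets of TGF-β had 7 of 19 members lower and 3 higher. Their median of -0.46 changed to 0.083 when the arrays were scaled to their 75th percentile. Of the lower members, Pmepa1, carried as Tmepai, had 148 in C2C12-W4-08 and 511 in C2C12-DF (-1.79). The other lower members were Col1a1, Fn1, Tagln and Acta2, given above, with Thbs1 and Ski at -1.76 and -1.33. The higher members were Smad7, Skil and Ccn2 at 1.89, 1.25 and 1.15. In the Hedgehog pathway 4 of 11 genes were higher and 1 was lower. Kif7, a kinesin of the pathway, was bright at 1440.2 in C2C12-W4-08 and 134 in C2C12-DF (3.42). A second Kif7 probe passed the detection limit in C2C12-W4-08 alone, at 1.18, which is not told apart from background, so the probes do not carry the same signal.

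Part of the imprinted and IGF genes were lower. Of 25 members 10 were at least 2-fold lower and 0 higher (median -0.75). H19, an imprinted noncoding RNA, had 456 in C2C12-W4-08 and 10393 in C2C12-DF (-4.51), and its neighbour Igf2, a growth factor that promotes muscle differentiation, had 6.16 in C2C12-W4-08 and 49.0 in C2C12-DF (-2.99). Igfbp3 had 2.09 in C2C12-W4-08 and 34.3 in C2C12-DF, at least 14.2-fold lower, Igfbp5 had 131 in C2C12-W4-08 and 359.8 in C2C12-DF (-1.45), and the imprinted zinc finger gene Peg3 had 35.1 in C2C12-W4-08 and 117 in C2C12-DF (-1.74). The imprinted RNA Meg3 was level at 35.5 in C2C12-W4-08 and 32.8 in C2C12-DF (0.11). Other growth factors and receptors had 5 of 35 members higher and 7 lower (median 0.16). Stem cell factor, Kitl, had 43.2 in C2C12-W4-08 and 11.3 in C2C12-DF (1.93) and the EGF receptor ligand Areg had 105 in C2C12-W4-08 and 43.6 in C2C12-DF (1.27). The receptors Pdgfrb, at 27.4 in C2C12-W4-08 and 108 in C2C12-DF (-1.98), and Egfr, at 2.99 in C2C12-W4-08 and 33.8 in C2C12-DF (-3.50), were lower. Proliferins, hormones of the prolactin family in dividing fibroblasts, were within 2-fold, with Prl2c5, carried as Mrpplf4, at 46.4 in C2C12-W4-08 and 79.7 in C2C12-DF (-0.78).

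Many genes of immune signaling were lower. Of 27 interferon response genes 16 were at least 2-fold lower and 1 was higher (median -1.18). Ifitm1, a membrane protein that restricts viruses, had 17.0 in C2C12-W4-08 and 288 in C2C12-DF (-4.08), the factor Irf1 had 45.0 in C2C12-W4-08 and 158 in C2C12-DF (-1.81), and the class I antigen gene H2-K1 had 301 in C2C12-W4-08 and 825 in C2C12-DF (-1.45). B2m, the light chain of class I antigens, had 1399 in C2C12-W4-08 and 3242 in C2C12-DF (-1.21). Of 40 chemokines, cytokines and receptors 18 were lower and 2 higher (median -0.52, and 0.019 when the arrays were scaled to their 75th percentile). Cxcl13 had 2.99 in C2C12-W4-08 and 96.9 in C2C12-DF (-5.02), Cxcl12, a chemokine of stromal and muscle precursor cells, had 9.32 in C2C12-W4-08 and 129 in C2C12-DF (-3.79), and its receptors Cxcr4 and Ackr3 were also lower at -1.65 and -1.80. Ligand and receptors of this axis thus differed the same way. The interleukin 2 receptor chain Il2ra had 19.7 in C2C12-W4-08 and 4.47 in C2C12-DF (2.14), and osteopontin, Spp1, was level at 1961 in C2C12-W4-08 and 2113 in C2C12-DF (-0.11). Hox genes had 2 of 20 higher and 3 lower (median -0.092), with Hoxa9 at 52.3 in C2C12-W4-08 and 24.5 in C2C12-DF (1.09) and Hoxc9 at 81.7 in C2C12-W4-08 and 150.1 in C2C12-DF (-0.88).

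Among the named probes with the largest ratios, several belong to no list. Car6, a secreted carbonic anhydrase, had 341 in C2C12-W4-08 and 8.38 in C2C12-DF (5.35), and Avil, an actin regulator of the villin family, had 102 in C2C12-W4-08 and 3.49 in C2C12-DF (4.87). Trem1, an immune receptor of myeloid cells, had 274 in C2C12-W4-08 and 30.9 in C2C12-DF (3.15), and Cd163l1, a scavenger receptor carried as E430002D04Rik, had 863 in C2C12-W4-08 and 79.7 in C2C12-DF (3.44). Qrich1 (2610028H07Rik) and Bricd5 (9930021D14Rik) had log2 ratios of 3.74 and 3.78. On the low side Itgb1bp2, a muscle protein that binds integrins, had 4.80 in C2C12-W4-08 and 251 in C2C12-DF (-5.71), Smim14 had 1.64 in C2C12-W4-08 and 143 in C2C12-DF, at least 59.1-fold lower, and Ptov1 had 0.731 in C2C12-W4-08 and 128 in C2C12-DF, at least 52.8-fold lower. Of the 15 named probes at that end with a signal of at least 100 on either array, most were the sarcomere genes above.

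Of the remaining genes that the study names for its arrays, most were dim. Lingo2 had 1.18 in C2C12-W4-08 and 6.91 in C2C12-DF, at least 2.86-fold lower. Art3, Dlx3, Igsf5 and Osbp2 had log2 ratios of -2.33, -2.32, -2.20 and -1.87, with signals of 2.99 to 3.90 in C2C12-W4-08 and 13.8 to 19.6 in C2C12-DF. Nefl, Cck and Kpna4 had -0.68, 0.074 and 0.24, E2f8 had -0.82, and Cox6a2 had 9.32 in C2C12-W4-08 and 15.7 in C2C12-DF (-0.75). Cd83 was near background on both arrays with 0.731 in C2C12-W4-08 and 3.49 in C2C12-DF. Ntsr2 and Prkch were detected on neither array.

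Markers of other cell types were checked as a whole. Of the smooth muscle markers, 5 of 7 were lower and 1 higher, with summed signals of 3779 in C2C12-W4-08 and 14272 in C2C12-DF. Adipocyte markers had 3 of 5 higher and 0 lower, with sums of 175 and 55.1 in the same order, and the defining Adipoq was detected on neither array. Epithelial markers had 3 of 6 higher, with sums of 519.5 and 220.4, and of these the keratin Krt14 had 82.6 in C2C12-W4-08 and 12.8 in C2C12-DF (2.69) while the defining Epcam and Cdh1 were dim at 2.54 and 3.44 in C2C12-W4-08 and 4.47 and 5.94 in C2C12-DF. Leukocyte markers had 3 of 5 higher, led by Cd68 at 97.5 in C2C12-W4-08 and 21.1 in C2C12-DF (2.21). Ptprc, the pan-leukocyte antigen, passed the detection limit in C2C12-W4-08 alone, at 0.731, which is not told apart from background and lies below the limit of C2C12-DF. Neuron and glia markers had 0 of 10 higher and 1 lower, and tenocyte markers had 0 of 3 higher and 2 lower. Endothelial markers were detected on both arrays for 1 of 9 genes, and the defining Pecam1 was detected on neither. Osteoblast markers had 0 of 5 higher and 1 lower, and chondrocyte markers had no member of 6 past 2-fold. The part of any such cells in the values above was not tested.

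The direction of the list medians depended on the scaling for some lists and not for others. Over 13 settings, the one of the text included, the medians of 12 lists were below 0 in each, namely thick filament, thin filament, Z-disc, excitation, synapse, muscle energy, fusion, dystrophin complex, collagen, matrix glycoprotein, IGF and interferon. The medians of 8 lists were above 0 in each, namely DNA replication, mitosis, nucleolus, amino acid shortage, tRNA synthetase, endoplasmic reticulum chaperone, oxidative stress and proteasome. The other 29 lists changed sign under at least 1 setting.

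**Figure D5:**
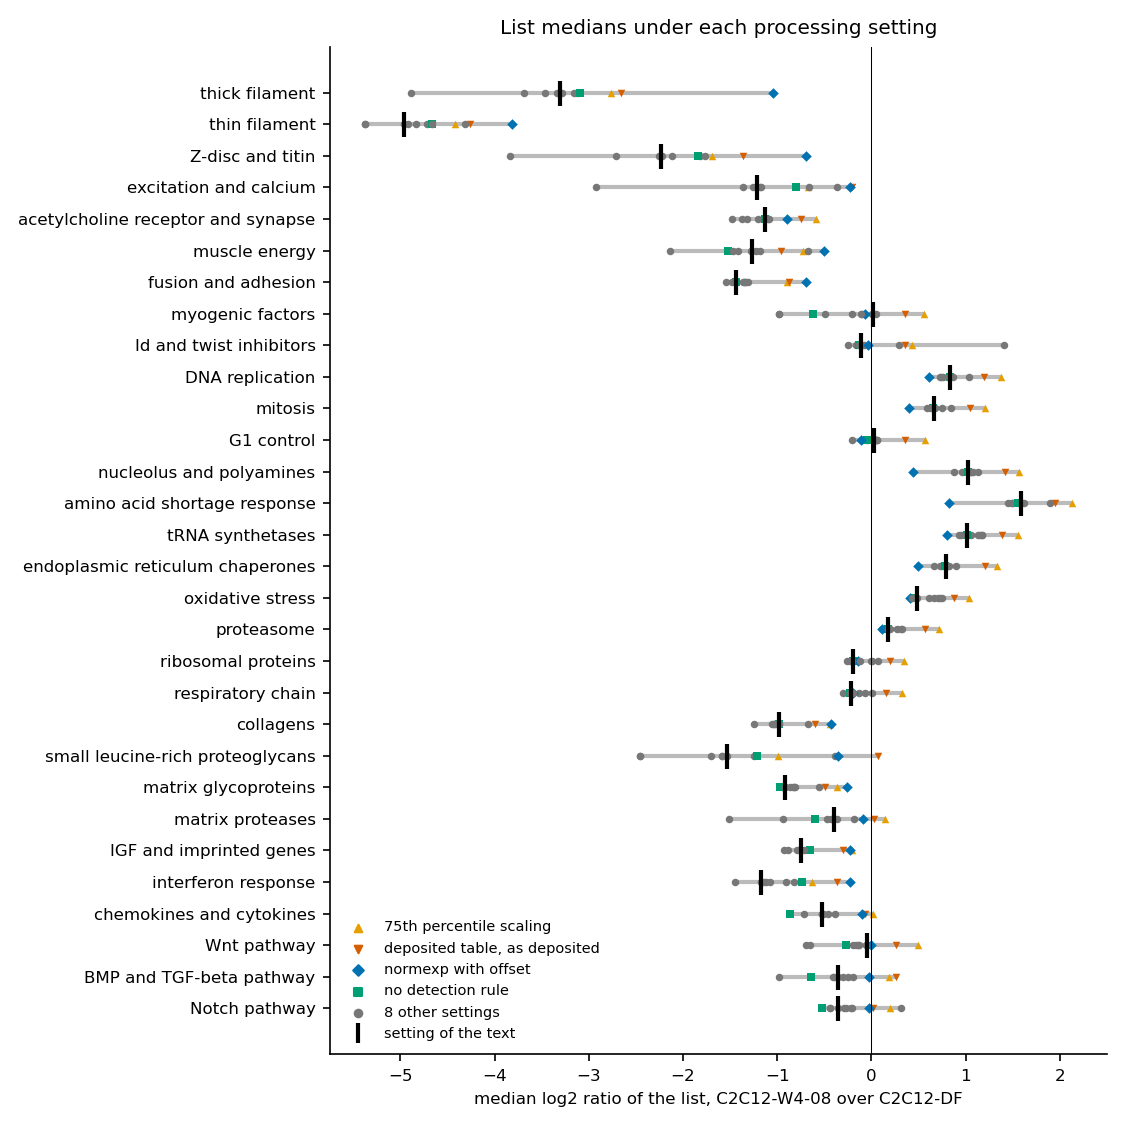
Median log2 ratio of C2C12-W4-08 over C2C12-DF for 30 of the gene lists under each of 13 processing settings, with the setting of the text as a black tick, 4 others as coloured shapes, the remaining 8 as grey points and the range as a grey line. The muscle medians stay left of 0, those of amino acid shortage, tRNA synthetases, replication and mitosis stay right of it, and scaling to the 75th percentile moves every list to the right by 0.54.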

How the data were processed

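Total RNA of C2C12-W4-08 and C2C12-DF was labelled with 1 dye and hybridised to Toray 3D-Gene mouse 24k arrays, 1 array each. RNA extraction is described differently in the sources, as Isogen in the methods and as a miRNeasy kit in the labels. The scanner files deposited by the authors hold a median intensity per spot, not normalized, and these intensities were used. The deposited table of processed intensity values, in which each column has a median of 25, served as an alternative. The blank mean was taken off each intensity, probes above the blank mean plus 2 SD counted as detected, and log2 ratios of C2C12-W4-08 over C2C12-DF were scaled to a median ratio of 1 over the 17296 probes detected on both arrays. For the counts, a probe detected on 1 array has a bound against the lowest detected signal of the other. The folds given for named genes as at least a value are against the brightest negative control of the other array at its mean plus 2 SD. A gene enters a list by its probe of highest mean signal. Groups come from the labels, no test was possible, and the lowest detected signal stands for depth.

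Named were the genes the study names, the 15 named probes at each end with a signal of at least 100 on 1 array, and in each list up to 4 members in the direction of the median and 2 in the other with a signal of at least 50 on 1 array. Further members were named after their values were seen, for their known role. The comparison and the lists were chosen with earlier results of these data known. Array names were updated through the RefSeq gene table of GRCm38.p6, which matched 16809 of 18355 names. Promoter windows came from RefSeq. The calculation was tested on simulated data. Python 3.11.15, pandas 2.3.3, numpy 2.4.6, statsmodels 0.14.6 and limma 3.58.1 in R 4.3.3 were used. The alternatives changed the scaling, the background, the detection rule, the filter on dim probes, the source table and the fold. A few genes of the lists are counted but not reported by name here.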

Additional observations from a re-analysis of the deposited data

How the results depend on the processing

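The counts of 1547 higher and 2239 lower probes depended on scaling, background, detection rule, filter and fold. With the 75th percentile of both arrays set equal they were 4495 and 1114, the median of all probes moved to 0.54, and 80.1% of the probes past 2-fold were higher, against 40.9% in the text. With the table as deposited they were 4500 and 1282, with a median of 0.46 and 77.8% higher. With normexp and an offset of 50 they were 386 and 692, and the offset pulls dim ratios toward 0 by its construction. With no detection rule they were 1773 and 5992 of 23472 probes, with a median of -0.20 and 22.8% higher. When both arrays had to reach 20 they were 599 and 766 of 8727, and when 1 array had to reach 100 they were 444 and 657 of 4789, where fewer probes are compared. At 1.5-fold they were 3610 and 3955, and at 4-fold 162 and 625. Under quantile normalization, loess, print block centring, local background, the scaled deposited table and each gene counted once, both counts stayed within 1.5 times. This also held with signals raised to the negative control level, chosen after seeing the data, at 1435 and 1757. Of list medians of at least 2-fold in the text, those of 3 lists changed sign. That of the small leucine-rich proteoglycans was 0.072 with the table as deposited, that of tenocyte markers 0.31 with the scaled and 0.77 with the unscaled deposited table, and that of leukocyte markers -0.62 with no detection rule. Cd83 turned to 0.15 under normexp, and the cause of these turns was not tested. Other list medians moved by less than 0.408 on the log2 scale, the largest SD of a positive control over its spots, in 544 cases and by more in 178. For named genes these counts were 2579 and 687. The lowest detected signal limits ratios of dim probes, and 204 probes stood at that of C2C12-W4-08, all of them at least 2-fold lower. No paired analysis was possible because each condition has 1 array, and no replicate could be left out.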

Other observations

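Several probes detected on both arrays stood for 157 genes. The log2 ratios of such probes had a median range of 0.72 within a gene, and for 73 of these genes they had opposite signs. Of the probes compared or not, 4918 carry no gene name and enter only the counts over all probes.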
